A study of Mus musculus with 4 samples.

Results

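Solute carriers are membrane proteins that move nutrients, metabolites, ions and metals across the cell surface and the membranes of organelles, by exchange, by coupling to a gradient or by facilitated diffusion. In neutrophils, the granule-bearing phagocytes of the first response to infection, such carriers are known to supply glucose and export lactate. They are also known to import cystine for glutathione, to move metals out of the phagosome and to set pH around the oxidative burst. The genes described here have a mouse symbol made of Slc, a family number, a letter and a member number, and at least 100 estimated counts in each of the 4 libraries. Of 16566 genes, 318 had such a symbol, 120 reached the minimum, and 116 remained after Slc2a1, Slc2a3, Slc16a3 and Slc4a1 were left out by name, while 198 fell below the minimum in at least 1 library. The counts chose the genes, so that each is well measured is part of the choice and is given as a description only. Beside carriers proper, the symbol rule took 3 genes named after a carrier, which are Slc9a3r1, Slc7a6os and Slc4a1ap.

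The RNA came from bone marrow neutrophils of C57BL/6 mice, stated to be over 95% pure, and no genotype other than the strain is given. After 1 h in medium with 20% fetal bovine serum, the cells had been exposed for 1 h to ruxolitinib, an inhibitor of the kinases JAK1 and JAK2 that act below cytokine receptors, or to vehicle made of 80% glucose and 20% PEG300. The concentration is 0.1 µM in the treatment labels and 1 µM in the protocol and the titles, so it is uncertain. Each group had 2 libraries, called vehicle 1 and 2 and ruxolitinib 1 and 2 after the titles, and no label says that they are separate animals or cultures. The p-values therefore measure only how these libraries scatter, and that scatter may be technical.

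The libraries held between 14235511 and 15419579 estimated counts and did not group by treatment. The biological coefficient of variation between a pair of libraries, the relative spread beyond counting noise, was 3.64% between vehicle 1 and ruxolitinib 1 and between 31.3% and 35.4% for each pair with vehicle 2. Ruxolitinib 2 differed from vehicle 1 and ruxolitinib 1 by 17.9% and 17.7%. All 14 neutrophil markers were detected, with a summed level between 249497 and 272895 TPM (transcript abundance scaled for gene length and library size), which matches the label. All 12 erythroid markers were detected as well, and their sum was 68268 TPM in ruxolitinib 2 against 32648 to 33925 TPM in the other libraries. The 13 eosinophil and basophil markers, none at 0, summed to 734 TPM in ruxolitinib 2, 3562 TPM in vehicle 2, and 2252 and 2507 TPM in vehicle 1 and ruxolitinib 1. Dendritic markers summed to 4411 TPM in vehicle 2 up to 7764 TPM in ruxolitinib 2. Monocyte and macrophage markers summed to 2079 to 2213 TPM, B lineage markers to 1338 to 1969 TPM, and T and NK markers to 38.1 to 48.0 TPM. These sums do not measure purity. The part of these other cells in the results below was not tested, and in bulk RNA fewer cells of a type cannot be told apart from less RNA per cell.

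No solute carrier gene passed the test between ruxolitinib and vehicle. The test was edgeR's quasi-likelihood test on all 11611 genes that passed a low-count filter, with Benjamini-Hochberg adjustment at 0.05, and all 116 solute carrier genes passed the filter. It called 0 of the 116 and 0% of all genes tested, with a smallest adjusted p of 0.975 over all genes. At an unadjusted p below 0.05 there were 2 solute carrier genes, Slc25a36 and Slc35d2, which is 1.72% of them, against 1.94% of all genes. DESeq2 also called 0% and had 2 carriers at an unadjusted p below 0.05, against 2% of all genes. The log2 fold changes, ruxolitinib over vehicle, ran from -0.86 to 0.79 around a median of 0.07, with 65 above and 51 below 0, and the median over all genes tested was 0.00. The spread between replicates left these values wide: the median 95% interval reached 0.68 on the log2 scale to each side, and for 44 of the 116 genes it included a change of 2-fold in at least 1 direction.

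In 29 genes (25%) both ruxolitinib libraries lay on 1 side of both vehicle libraries, 17 higher and 12 lower, against 27.3% of all genes tested, 14.5% higher and 12.8% lower. The share among the carriers was therefore near the background.

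By level, the solute carrier genes spanned mean values of 3.23 to 253 TPM with a median of 19.4 TPM. There were 16 genes at or above 100 TPM and 83 at or above 10 TPM, and the 10 highest held 40.2% of the summed level. The 10 were Slc15a3, Slc27a4, Slc3a2, Slc9a3r1, Slc38a2, Slc25a3, Slc25a5, Slc2a6, Slc6a6 and Slc20a1, in falling order from 253 to 134 TPM. They carry peptides, fatty acids, amino acids, phosphate, adenine nucleotides, hexoses and taurine, apart from the scaffold Slc9a3r1, and so spread over several substrate classes.

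**Figure D1:**
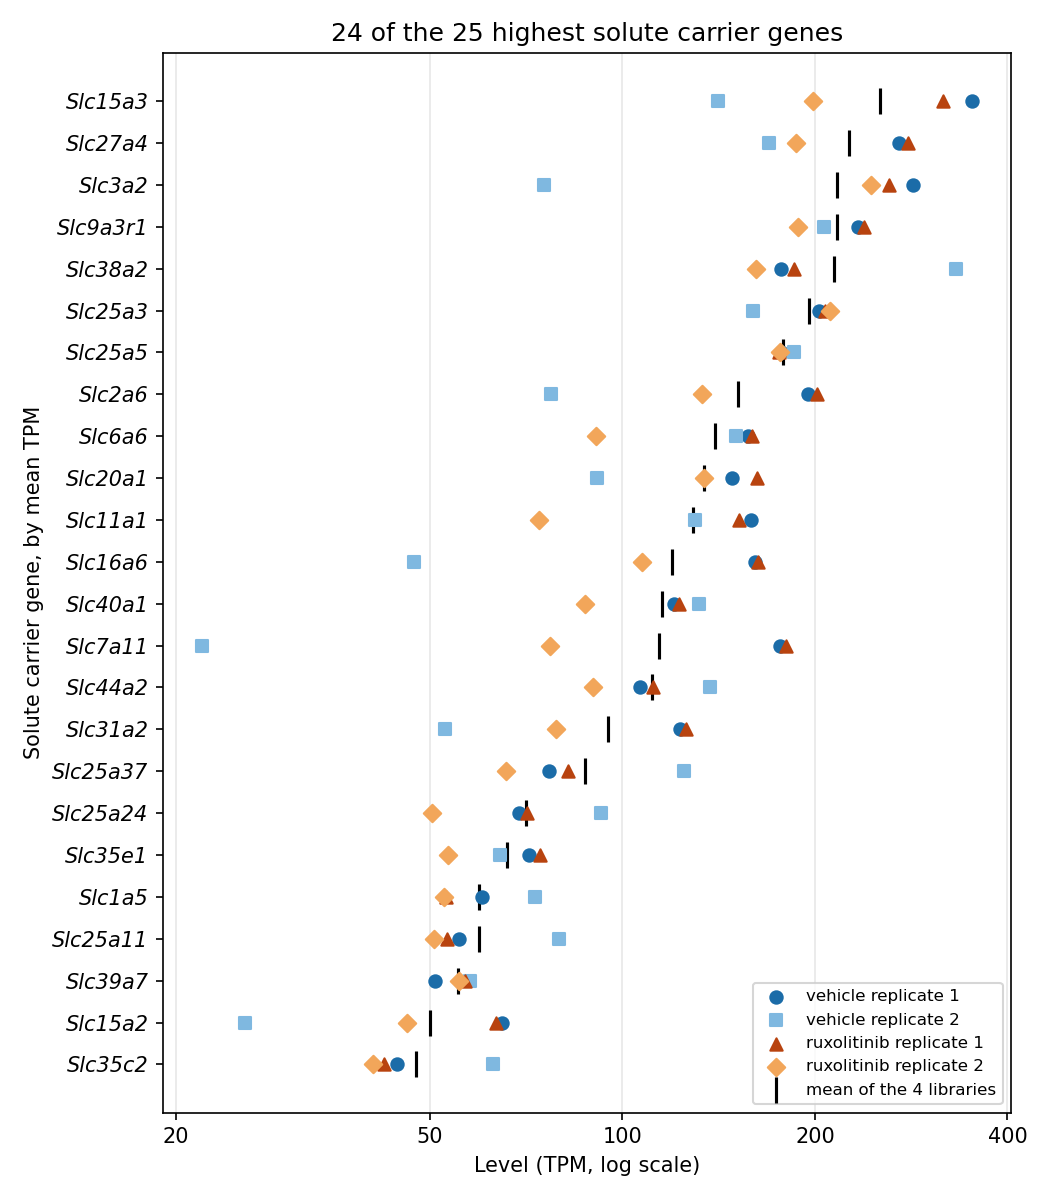
Level in TPM (log scale) of 24 of the 25 solute carrier genes with the highest mean TPM, 1 symbol per library and a vertical bar at the mean of the 4 libraries. Vehicle 2 lies far to the left for Slc3a2, Slc2a6, Slc16a6, Slc7a11 and Slc15a2, and far to the right for Slc38a2.

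The order of the highest genes depended on the library. Slc15a3 ranked 1 in vehicle 1 and ruxolitinib 1, 3 in ruxolitinib 2 and 7 in vehicle 2. Slc3a2 ranked 2, 3 and 1 in vehicle 1, ruxolitinib 1 and ruxolitinib 2, and 17 in vehicle 2, where Slc38a2 was first. Neighbours among the first 5 genes, whose means lie between 214 and 253 TPM, did not differ beyond the spread between libraries, since each of Slc15a3, Slc27a4, Slc3a2 and Slc38a2 varied by more than that gap across libraries. Slc9a3r1 was the steadiest of the 5, between 188 and 239 TPM.

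The amino acid carriers, 16 genes, held 3 of the 10 highest levels and included the gene with the widest range between libraries, Slc7a11. Their summed level was 1091 TPM in vehicle 1, 786 TPM in vehicle 2, 1074 TPM in ruxolitinib 1 and 800 TPM in ruxolitinib 2, so the groups overlapped. TPM depends on the rest of each library, and ruxolitinib 2 was less like vehicle 2 by normalized count (CPM). In log2 CPM the median difference from vehicle 1 was -0.11 in ruxolitinib 2 and -0.48 in vehicle 2. None passed the test; 11 had a log2 fold change above 0 and 5 below, with a median of 0.18.

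Slc7a11 encodes xCT, the exchanger that imports cystine for glutathione synthesis in return for glutamate, and the gene spans chr3:50364936-50499087 in the RefSeq table of GRCm38.p6. It was chosen for description after its values were seen, because it had the widest range between libraries of all 116 genes. Its normalized count in CPM, scaled for library size but not for gene length, was 918 in vehicle 1, 115 in vehicle 2, 940.4 in ruxolitinib 1 and 500.2 in ruxolitinib 2. Vehicle 2 was 8.02-fold below vehicle 1, and the ruxolitinib values lay on both sides of vehicle 1, so the groups overlapped. The fitted change was 0.48 ± 0.68 on the log2 scale (SE, n = 2 libraries in each group), with an edgeR adjusted p of 0.975 and a 95% interval from -1.01 to 1.97. By TPM it ranked 9, 8 and 16 in vehicle 1, ruxolitinib 1 and ruxolitinib 2, and 49 in vehicle 2.

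The amino acid response element is a short motif bound by ATF4, a transcription factor of the amino acid stress response known to act on Slc7a11. Its core was searched as TGATGNAA on both strands in 300 bases around annotated starts, from 250 before to 50 after. It was in 3 of the 111 windows found for 86 of the 116 solute carrier genes (2.7%), those of Slc7a11, Slc50a1 and Slc9a9, and in 3.97% of all 32851 windows. The window of Slc7a11, shown because this gene differed most between libraries, held it at 2 places, beginning 66 and 47 bases before the start. It lies at chr3:50443564-50443863 on the minus strand (RefSeq, GRCm38.p6), with both matches in capitals. The window surrounds an annotated start inside the gene span given above, and not the upstream end of that span.
Slc7a11 promoter: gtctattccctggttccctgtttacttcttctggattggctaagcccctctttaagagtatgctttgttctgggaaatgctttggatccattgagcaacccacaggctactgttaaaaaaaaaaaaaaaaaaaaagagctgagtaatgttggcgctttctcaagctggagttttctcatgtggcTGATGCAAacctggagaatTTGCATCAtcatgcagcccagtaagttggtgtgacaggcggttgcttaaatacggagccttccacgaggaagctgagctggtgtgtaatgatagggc
The match is a description of the letters and not a measured site, and ATF4 binding was not measured. The RNA of Atf4 itself was at 350 CPM in vehicle 1, 383 CPM in vehicle 2, 303 CPM in ruxolitinib 1 and 328 CPM in ruxolitinib 2. Its protein was not measured, and any part of ATF4 in the level of Slc7a11 was not tested.

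Slc3a2 encodes the CD98 heavy chain, the partner that brings the light chains Slc7a11, Slc7a5 and Slc7a6 to the cell surface. It measured 340.0 and 95.4 CPM in vehicle 1 and 2 and 321 and 332 CPM in ruxolitinib 1 and 2. Vehicle 2 alone was low, the ruxolitinib libraries lay just below vehicle 1, and the log2 fold change was 0.58 ± 0.47 (edgeR adjusted p = 0.975). Slc7a5, the large neutral amino acid light chain LAT1, had 62.9 and 30.6 CPM under vehicle and 59.8 and 73.8 CPM under ruxolitinib. Slc7a6, another light chain, was low throughout at 9.98 to 15.4 CPM, again lowest in vehicle 2.

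Slc7a1, the cationic amino acid carrier CAT1 that takes up arginine, had 96.5 and 24.3 CPM under vehicle and 97.0 and 81.7 CPM under ruxolitinib. Its vehicle replicates differed 3.98-fold, the largest gap between them after that of Slc7a11. Slc38a1, a sodium-coupled carrier of glutamine and other neutral amino acids, had 204 and 79.4 CPM under vehicle and 208 and 219 CPM under ruxolitinib. Both ruxolitinib libraries were above both vehicle libraries, though ruxolitinib 2 was only 1.07 times vehicle 1, and the log2 fold change was 0.59 ± 0.39 (edgeR adjusted p = 0.975).

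Not all amino acid carriers were low in vehicle 2. Slc38a2, a close relative of Slc38a1 known to be induced by amino acid shortage, had 454 and 856 CPM under vehicle and 477.5 and 519 CPM under ruxolitinib, and was highest in vehicle 2. Its log2 fold change was -0.40 ± 0.33 (edgeR adjusted p = 0.975). Slc6a6, the taurine transporter, differed little between vehicle replicates at 533 and 510 CPM, and had 545 CPM in ruxolitinib 1 and 387 CPM in ruxolitinib 2, which was the lowest. Slc1a5, the neutral amino acid exchanger ASCT2, lay between 78.5 and 108 CPM.

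**Figure D2:**
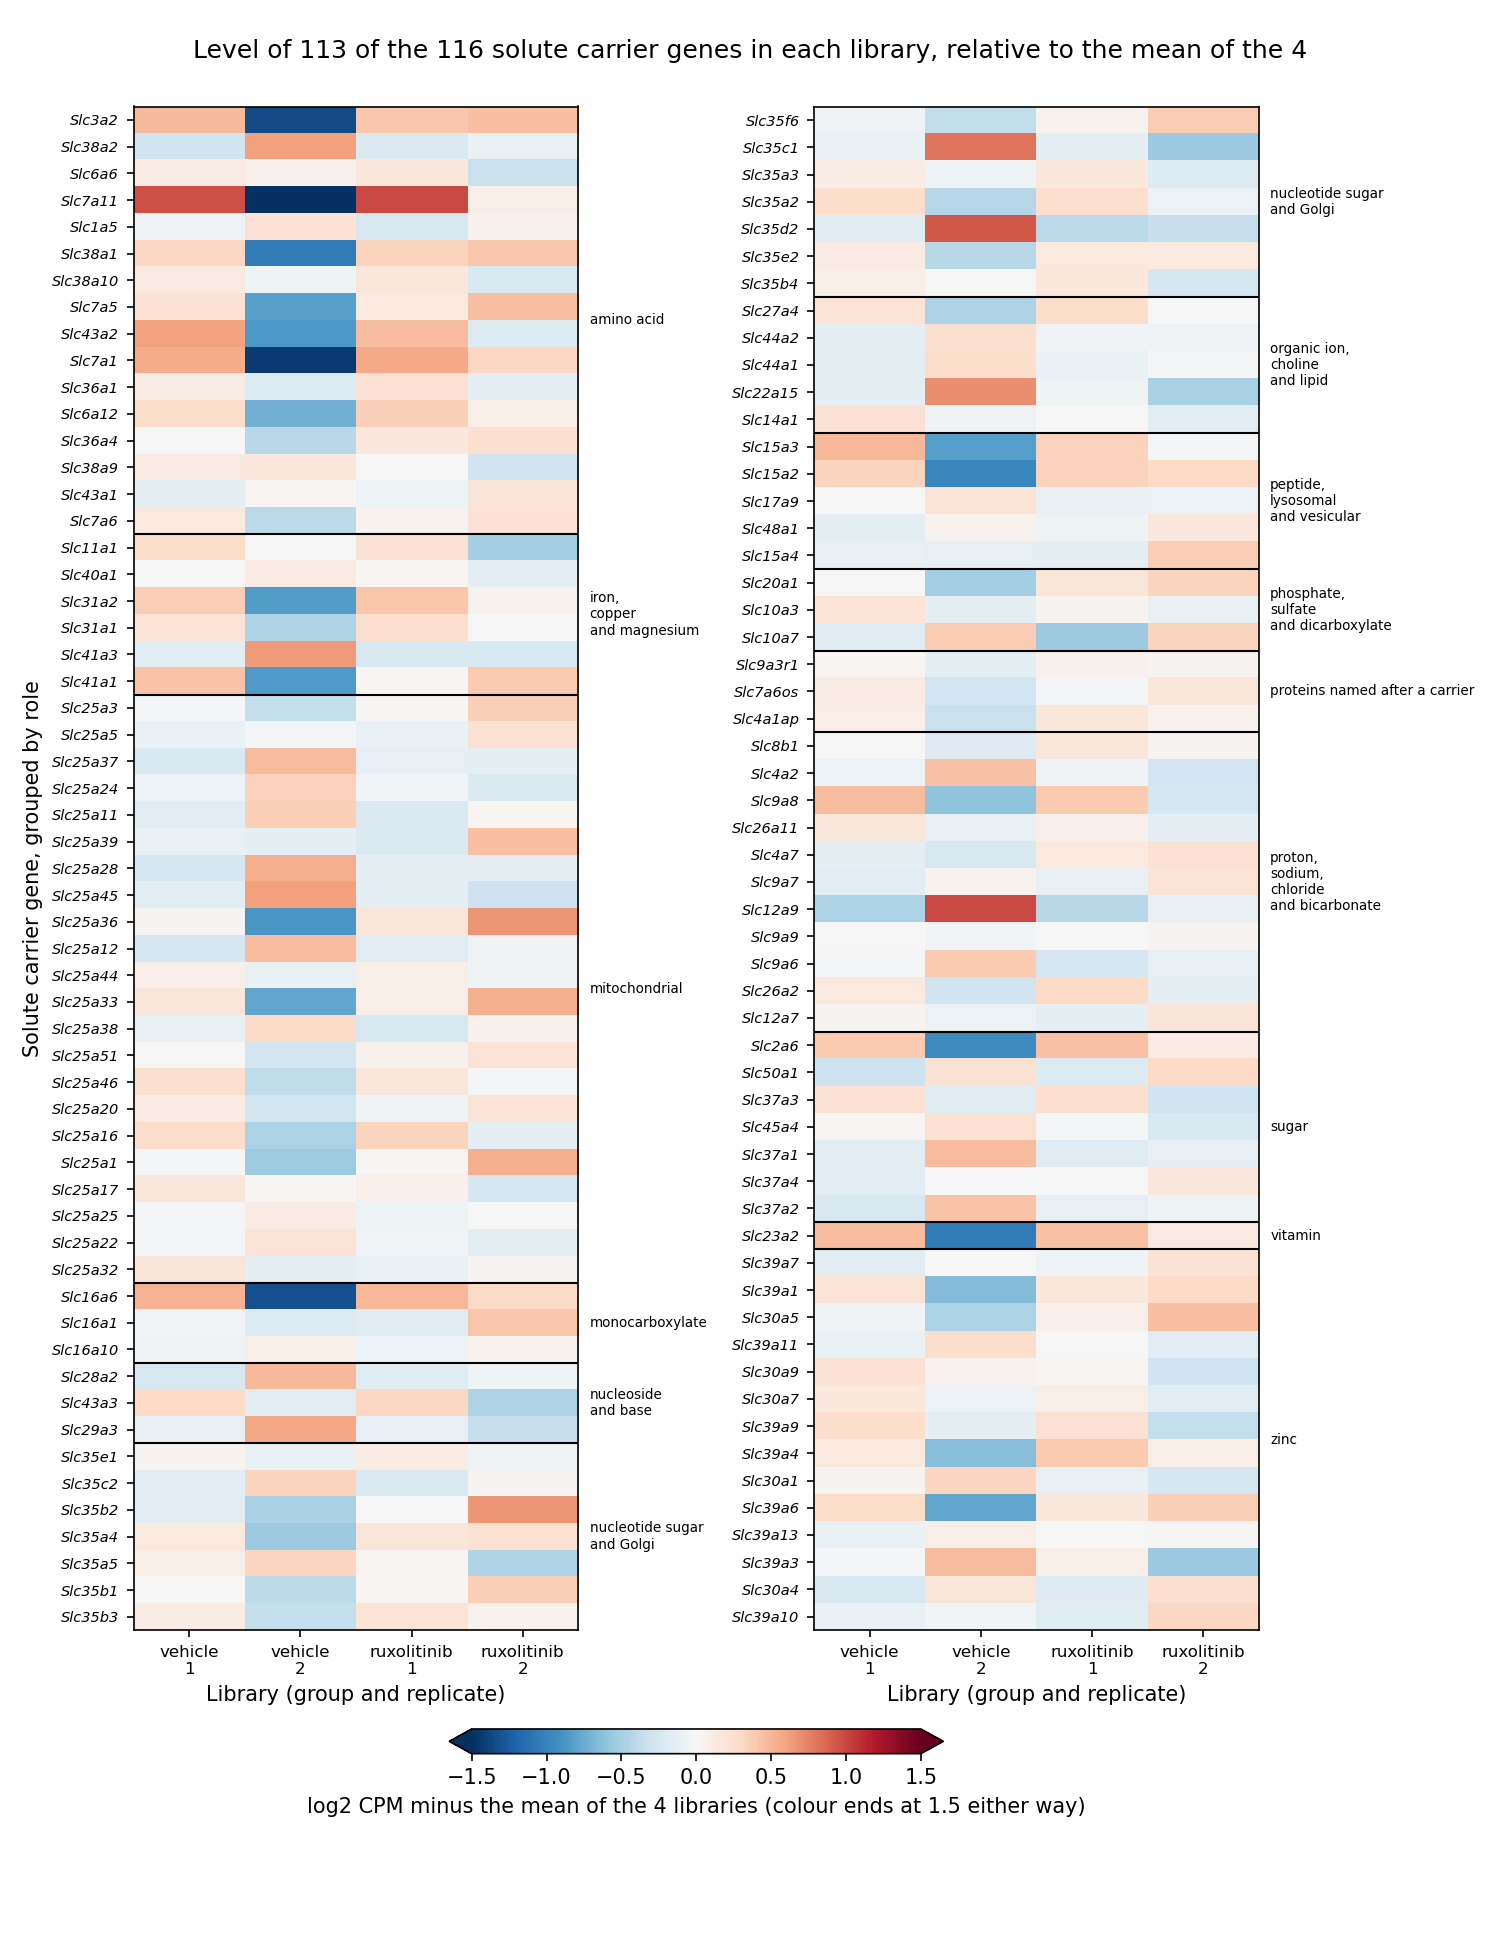
Log2 CPM of 113 of the 116 solute carrier genes in each library, minus the mean of the 4 libraries for that gene, with genes grouped by role and colour from blue (below the mean) to red (above). The column of vehicle 2 carries the strongest colours in both directions, with Slc7a11 past the blue end of the scale, and the columns of vehicle 1 and ruxolitinib 1 look alike.

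The mitochondrial carriers, the SLC25 family of the inner membrane, were the largest group with 23 genes, and none passed the test. Their summed level was close in all libraries, at 991 and 1045 TPM with vehicle and 993 and 921 TPM with ruxolitinib. The lowest sum, in ruxolitinib 2, was not a lower level by CPM. There the median log2 difference from vehicle 1 was 0.09, with 9 of the 23 genes below vehicle 1. Slc25a3, which brings phosphate into the matrix for ATP synthesis, had 157.5 and 124 CPM under vehicle and 162 and 204 CPM under ruxolitinib. The ruxolitinib libraries were both above the vehicle libraries, ruxolitinib 1 by little, and the log2 fold change was 0.38 ± 0.29 (edgeR adjusted p = 0.975). Slc25a5, the ADP/ATP exchanger ANT2, had 118 and 124 CPM under vehicle and 118 and 148 CPM under ruxolitinib, so the groups overlapped.

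Slc25a36 (chr9:97075281-97111041), a carrier of pyrimidine nucleotides into mitochondria, had the highest log2 fold change of the 116 genes. It measured 88.7 and 47.0 CPM in vehicle 1 and 2 and 97.5 and 137 CPM in ruxolitinib 1 and 2. Both ruxolitinib libraries were above both vehicle libraries, but ruxolitinib 1 was closer to vehicle 1 than the vehicle replicates were to each other. The estimate of 0.79 ± 0.35 on the log2 scale had a 95% interval from 0.02 to 1.55, an unadjusted p of 0.0446 and an edgeR adjusted p of 0.975. It was 0.39 without vehicle 2, 0.52 without ruxolitinib 2 and 1.33 without vehicle 1, where the edgeR adjusted p was 0.00141. Slc25a33, the other pyrimidine nucleotide carrier among these genes, had 31.5 and 16.3 CPM under vehicle and 29.8 and 40.5 CPM under ruxolitinib, and its groups overlapped. Slc25a1, the citrate carrier, had 13.3 and 9.33 CPM under vehicle and 13.7 and 19.6 CPM under ruxolitinib, with the groups apart and a log2 fold change of 0.56 ± 0.34.

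STAT factors, which JAK kinases activate, bind palindromes of the form TTCNNNGAA. That motif was in 9 of the 111 windows of solute carrier genes (8.11%) and in 8.3% of all windows, so its share among the carriers was near the background. The genes with it included Slc25a36, Slc28a2, Slc7a1 and Slc7a11. In Slc7a11 the 1 match lies in the window printed above, where it is not in capitals. The window of Slc25a36, shown because this gene had the smallest unadjusted p of the 116, held 1 match, beginning 212 bases before the start. It lies at chr9:97110992-97111291 on the minus strand (RefSeq, GRCm38.p6), with the match in capitals.
Slc25a36 promoter: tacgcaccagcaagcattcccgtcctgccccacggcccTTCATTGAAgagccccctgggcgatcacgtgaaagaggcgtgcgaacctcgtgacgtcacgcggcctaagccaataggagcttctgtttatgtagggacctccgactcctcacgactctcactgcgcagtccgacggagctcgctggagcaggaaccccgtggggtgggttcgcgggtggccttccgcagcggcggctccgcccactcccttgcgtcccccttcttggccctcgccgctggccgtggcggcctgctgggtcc
STAT binding was not measured, and the match says nothing of whether the site is used.

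Carriers tied to haem and iron in mitochondria are also abundant in red cell precursors, so they are given beside the erythroid markers. Slc25a37, the mitochondrial iron importer mitoferrin-1, had 185 and 301 CPM under vehicle and 199 and 196 CPM under ruxolitinib. It was highest in vehicle 2 and not in ruxolitinib 2, where the summed erythroid markers were highest. Slc25a39, which carries glutathione into mitochondria, had 36.0 and 35.4 CPM under vehicle and 33.4 and 53.0 CPM under ruxolitinib, with the high value in ruxolitinib 2. The part of erythroid RNA in these values was not tested.

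Of the 6 carriers of iron, copper and magnesium, 2 ranked among the 16 genes at or above 100 TPM, and none of the 6 passed the test. Slc11a1, which encodes the phagosomal metal transporter NRAMP1, had 200.4 and 165 CPM under vehicle and 193 and 117 CPM under ruxolitinib. It was lowest in ruxolitinib 2, and neither its protein nor its function in these cells was measured. Slc40a1, the iron exporter ferroportin, had 225 and 246 CPM under vehicle and 229 and 204 CPM under ruxolitinib, a range of 1.21-fold. Slc31a2, a copper transporter of internal membranes, had 120.3 and 51.9 CPM under vehicle and 123 and 96.3 CPM under ruxolitinib, with vehicle 2 lowest. Slc41a3, a magnesium carrier, was higher in vehicle 2 (23.7 CPM) than in vehicle 1 (13.5 CPM) or in ruxolitinib 1 and 2 (12.8 and 12.9 CPM), with a log2 fold change of -0.53 ± 0.34.

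The iron-storage chains, which are no carriers, differed as well. Fth1, the ferritin heavy chain, had 3430 and 1526 CPM under vehicle and 3355 and 3858 CPM under ruxolitinib. Nfe2l2, the oxidative stress factor NRF2 known to induce both Slc7a11 and ferritin, had 614 and 230.2 CPM under vehicle and 614 and 691 CPM under ruxolitinib. Both were low in vehicle 2 and alike in the other libraries. Ftl1, the ferritin light chain, had 1881 and 1533 CPM under vehicle and 1971 and 2640 CPM under ruxolitinib, so its vehicle replicates lay closer together and ruxolitinib 2 stood out. Hmox1, the haem-degrading enzyme that NRF2 is also known to induce, was highest in vehicle 2, at 118 CPM against 97.7 to 108.5 CPM elsewhere. The protein of NRF2 was not measured, and any part of it in the levels of these genes was not tested. In the list of partners and metal-handling regulators they belong to, 0 of the 17 genes tested passed the test. Of the 17, 0 had an unadjusted p below 0.05, against 1.94% of all genes tested, and the median log2 fold change was -0.06.

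The 14 zinc carriers, which divide into exporters from the cytosol (SLC30) and importers to it (SLC39), were moderate in level, the highest being Slc39a7 at 55.2 TPM. Slc39a7, which releases zinc from the endoplasmic reticulum, had 64.5 and 71.6 CPM under vehicle and 69.5 and 83.9 CPM under ruxolitinib, with overlap. Slc30a5, which loads zinc into the early secretory pathway, had 53.6 and 40.1 CPM under vehicle and 58.5 and 76.0 CPM under ruxolitinib. The groups were apart and the log2 fold change was 0.52 ± 0.30 (edgeR adjusted p = 0.975). Slc30a1, the zinc exporter of the cell surface, lay the other way, with 20.4 and 24.9 CPM under vehicle and 18.3 and 16.7 CPM under ruxolitinib, at -0.37 ± 0.30.

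The 14 nucleotide sugar and Golgi carriers (SLC35) feed glycosylation and sulfation in the secretory pathway, and none of the 14 passed the test. Groups were apart in 8 of the 14, 5 higher and 3 lower, where the share over all genes tested was 27.3%. This was the highest share of any role, and over all 116 genes it was 25%. Groups were apart in 4 higher and 1 lower of the 23 mitochondrial carriers, and in 2 higher and 1 lower of the 16 amino acid carriers. Differences between roles were not tested. Slc35b2, which supplies the sulfate donor PAPS to the Golgi, had 38.1 and 30.6 CPM under vehicle and 42.5 and 67.6 CPM under ruxolitinib. Its log2 fold change was 0.68 ± 0.32, and its excess rested on ruxolitinib 2. Slc35d2, a nucleotide sugar carrier, had the lowest log2 fold change of the 116 genes, with 11.4 and 24.6 CPM under vehicle and 9.70 and 10.2 CPM under ruxolitinib. Vehicle 2 was 2.16-fold above vehicle 1, which lay close to ruxolitinib 1 and 2, and the log2 fold change was -0.86 ± 0.39, with an unadjusted p of 0.0483 and an edgeR adjusted p of 0.975. Without vehicle 2 it was -0.20, and without vehicle 1 it was -1.30, with an edgeR adjusted p of 0.00217.

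Slc35c1 carries GDP-fucose into the Golgi, and its loss in humans causes a leukocyte adhesion deficiency because selectin ligands lack fucose. It had 24.8 and 46.0 CPM under vehicle and 24.0 and 17.9 CPM under ruxolitinib, which gave a log2 fold change of -0.75 ± 0.35 (edgeR adjusted p = 0.975). Ruxolitinib 1 was close to vehicle 1, and the gap between the groups came from a high vehicle 2 and a low ruxolitinib 2. Slc35a5, of the same family, had 85.2 and 99.7 CPM under vehicle and 81.6 and 58.6 CPM under ruxolitinib, at -0.40 ± 0.29. The most abundant gene of the group, Slc35e1, lay between 255 and 295 CPM in all libraries.

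**Figure D3:**
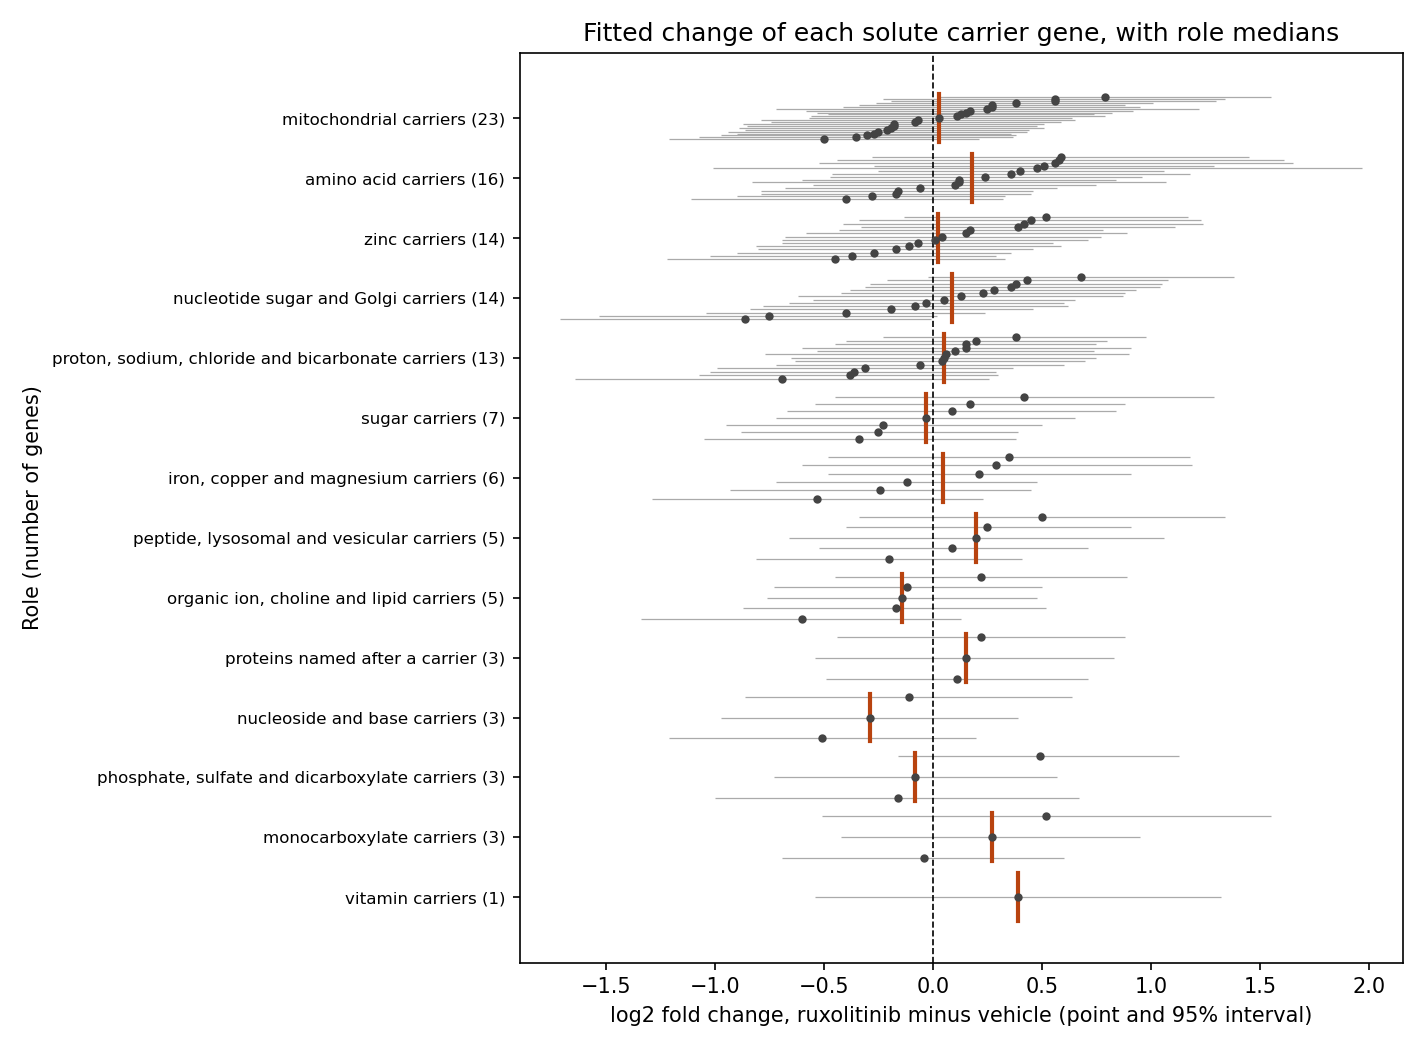
Log2 fold change, ruxolitinib over vehicle, of each of the 116 solute carrier genes from edgeR (points) with its 95% interval (grey lines), in rows by role, with the median of the role as a coloured bar. The points lie between -0.86 and 0.79, the intervals cross 0 except those of Slc25a36 and Slc35d2, and none of the genes passed the test.

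Carriers of peptides and of the lysosome were 5 genes, led by the most abundant of all. Slc15a3, a proton-coupled carrier that exports histidine and small peptides from lysosomes, had 448 and 180 CPM under vehicle and 405 and 316 CPM under ruxolitinib. Vehicle 2 was lowest and vehicle 1 highest, so both ruxolitinib values lay between the vehicle replicates, and the log2 fold change was 0.20 ± 0.39 (edgeR adjusted p = 0.977). Slc15a4, its relative known to be needed for endosomal Toll-like receptor signalling, was steady at 34.0 and 33.5 CPM under vehicle and 33.2 CPM in ruxolitinib 1, and had 47.4 CPM in ruxolitinib 2. Slc15a2, the peptide carrier PEPT2 of the cell surface, had 131.5 and 53.1 CPM under vehicle and 133 and 128 CPM under ruxolitinib.

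Among the 7 sugar carriers kept by the rule, Slc2a6 led. Slc2a6, the hexose carrier GLUT6 of lysosomal membranes, had 223 and 88.2 CPM under vehicle and 230.1 and 186 CPM under ruxolitinib, with vehicle 2 low and a log2 fold change of 0.42 ± 0.39. The 4 genes left out by name include the main glucose and lactate carriers. Slc2a3, the glucose transporter GLUT3, had a mean of 453 TPM and Slc16a3, the lactate exporter MCT4, one of 436 TPM, both above every gene kept. Slc2a1, the glucose transporter GLUT1, had 67.1 TPM and Slc4a1, the anion exchanger of red cells, 66.5 TPM, and none of the 4 passed the test.

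Of 3 monocarboxylate carriers, Slc16a6 was the highest at 120 TPM, with 349.9 and 97.5 CPM under vehicle and 343 and 297 CPM under ruxolitinib, again low in vehicle 2 alone. Slc16a1, the lactate carrier MCT1, was lower at 10.4 TPM, with 26.2 and 23.4 CPM under vehicle and 23.8 and 36.0 CPM under ruxolitinib. Groups overlapped for both genes.

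Carriers of lipids, choline and organic ions were 5 genes. Slc27a4, the fatty acid transport protein FATP4, which also activates fatty acids to acyl-CoA, had 601.5 and 378 CPM under vehicle and 623 and 518 CPM under ruxolitinib. It was second by mean TPM, and its log2 fold change was 0.22 ± 0.30. Slc44a2, a choline transporter-like protein that carries a neutrophil antigen in humans, had 203.5 and 263 CPM under vehicle and 214 and 216 CPM under ruxolitinib, and its groups overlapped.

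The 13 carriers of protons, sodium, chloride and bicarbonate had 8 log2 fold changes above 0 and 5 below, with a median of 0.05, and none passed the test. Slc4a7, a sodium-bicarbonate cotransporter, had 41.7 and 38.8 CPM under vehicle and 50.7 and 53.8 CPM under ruxolitinib. Its groups were apart and its log2 fold change was 0.38 ± 0.27 (edgeR adjusted p = 0.975). Slc12a9 was 2.76-fold higher in vehicle 2 than in vehicle 1, the largest excess of vehicle 2 among the 116 genes.

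Slc20a1, the sodium-phosphate cotransporter PiT1 of the cell surface, had 269 and 187 CPM under vehicle and 302.5 and 337 CPM under ruxolitinib. The groups were apart, the log2 fold change was 0.49 ± 0.29 and the edgeR adjusted p was 0.975. The 3 nucleoside and base carriers all had log2 fold changes below 0, from -0.51 to -0.11, and none passed the test. Slc29a3, the lysosomal nucleoside carrier ENT3, had 25.5 and 41.1 CPM under vehicle and 25.2 and 21.6 CPM under ruxolitinib, with vehicle 2 high. Slc28a2, a concentrative nucleoside carrier and the most abundant of the 3, was also highest in vehicle 2, at 115 CPM against 69.9 to 78.8 CPM elsewhere.

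Slc23a2, the vitamin C transporter SVCT2 and the sole vitamin carrier kept, had 69.6 and 24.3 CPM under vehicle and 67.9 and 55.1 CPM under ruxolitinib, low in vehicle 2. Slc9a3r1, the scaffold NHERF1 that ties membrane proteins to ezrin, had 239.7 and 213 CPM under vehicle and 246 and 242 CPM under ruxolitinib. Its groups were apart by a narrow margin, and the log2 fold change was 0.11 ± 0.27.

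Across the 116 genes the vehicle replicates lay farther apart than vehicle 1 lay from either ruxolitinib library. The standard deviation of the log2 difference in CPM was 0.73 between vehicle 2 and vehicle 1, 0.35 between ruxolitinib 2 and vehicle 1, and 0.12 between ruxolitinib 1 and vehicle 1. Over all genes tested the same values were 0.72, 0.46 and 0.25. These include genes of lower count, which scatter more from counting noise, while the rule kept only carriers with at least 100 counts. The narrower values of the carriers, and their smaller 2-fold shares against ruxolitinib below, may therefore come from the rule, which was not tested. Between vehicle 2 and vehicle 1, 18 of the 116 genes (15.5%) differed by at least 2-fold, against 14.6% of all genes, and 0 did so between vehicle 1 and either ruxolitinib library, against 1.25% of all genes for ruxolitinib 1 and 4.63% for ruxolitinib 2. Vehicle 2 was the lowest library for 54 of the 116 genes (46.6%) and for 38.6% of all genes. It was the highest library for 37 of the 116 (31.9%) and for 38.55% of all genes.

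Of the 18 genes, 16 were lower and 2 higher in vehicle 2, while over all genes tested 921 were lower and 766 higher. Of the 16, 15 were Slc7a11, Slc7a1, Slc16a6, Slc3a2, Slc23a2, Slc43a2, Slc38a1, Slc2a6, Slc15a3, Slc15a2, Slc41a1, Slc31a2, Slc9a8, Slc39a6 and Slc7a5, from 8.02-fold lower to 2.06-fold lower. Among them 6 were amino acid carriers. The 2 higher in vehicle 2 were Slc12a9 and Slc35d2.

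**Figure D4:**
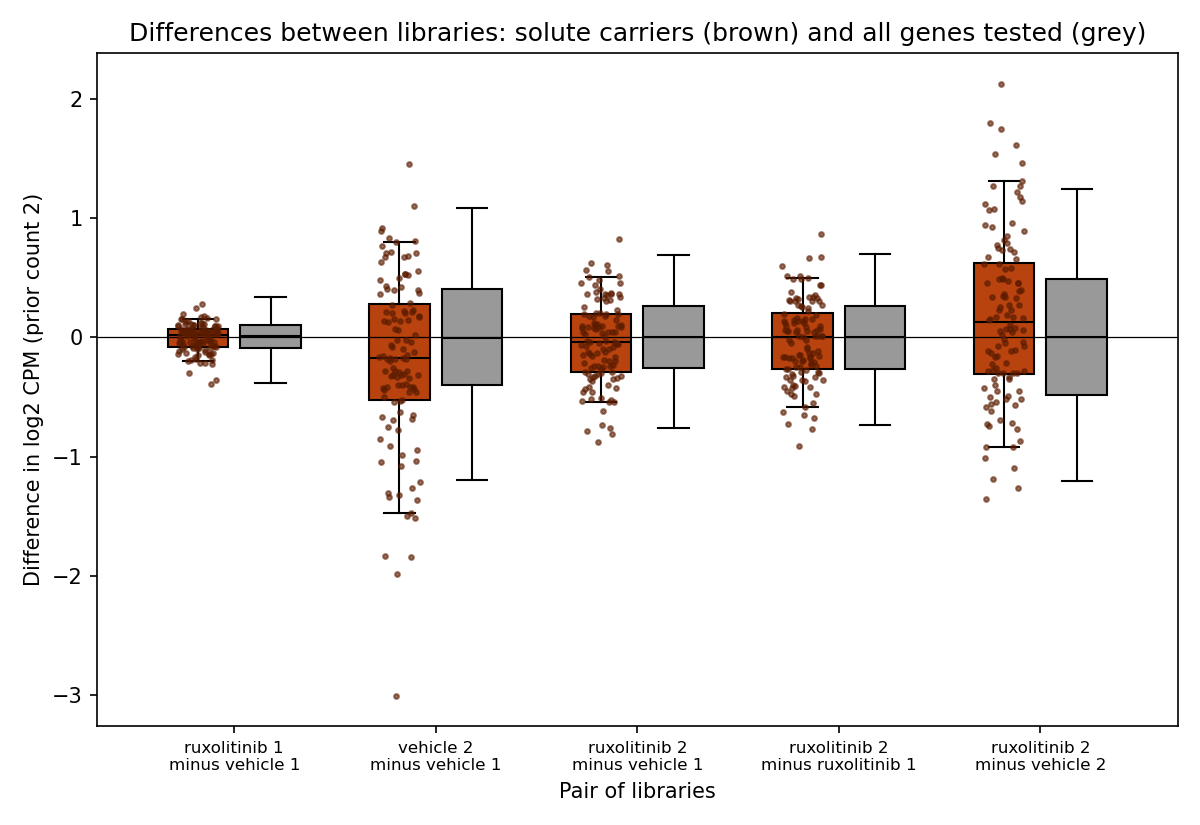
Difference in log2 CPM between pairs of libraries for the 116 solute carrier genes (brown boxes, 1 point per gene) and for all genes tested (grey boxes), where boxes span the quartiles with a line at the median and whiskers run from the 5 to the 95 percentile. The 3 pairs without vehicle 2 are narrower than the 2 with it, ruxolitinib 1 minus vehicle 1 is the narrowest, and the lowest point, at -3.00, is Slc7a11 in vehicle 2 minus vehicle 1.

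For many carriers the fitted change depended on which vehicle library was kept. Without vehicle 1, which leaves vehicle 2 as the sole control and assumes that it varies like the ruxolitinib libraries, the edgeR test called 26 of the 116 genes (22.4%), 19 higher and 7 lower with ruxolitinib, against 13.7% of all genes, 7.13% higher and 6.62% lower. In each of these genes vehicle 2 was the lowest or the highest library. That follows largely from the choice, since they were called because vehicle 2 lay away from the ruxolitinib libraries. Vehicle 1, left out of that fit, was close to ruxolitinib 1, which was 0.762 to 1.11 times its value. Ruxolitinib 2 was 0.545 to 1.77 times the value of vehicle 1. Slc7a11 was then at 2.66 ± 0.37 (edgeR adjusted p = 2.09e-07) and Slc3a2 at 1.79 ± 0.33 (adjusted p = 6.28e-05). Without vehicle 2, without ruxolitinib 1 or without ruxolitinib 2, the test called 0 of the 116, against 0.0169%, 0.0833% and 0.0499% of all genes, and Slc7a11 was at -0.36, -0.04 and 0.86.

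**Figure D5:**
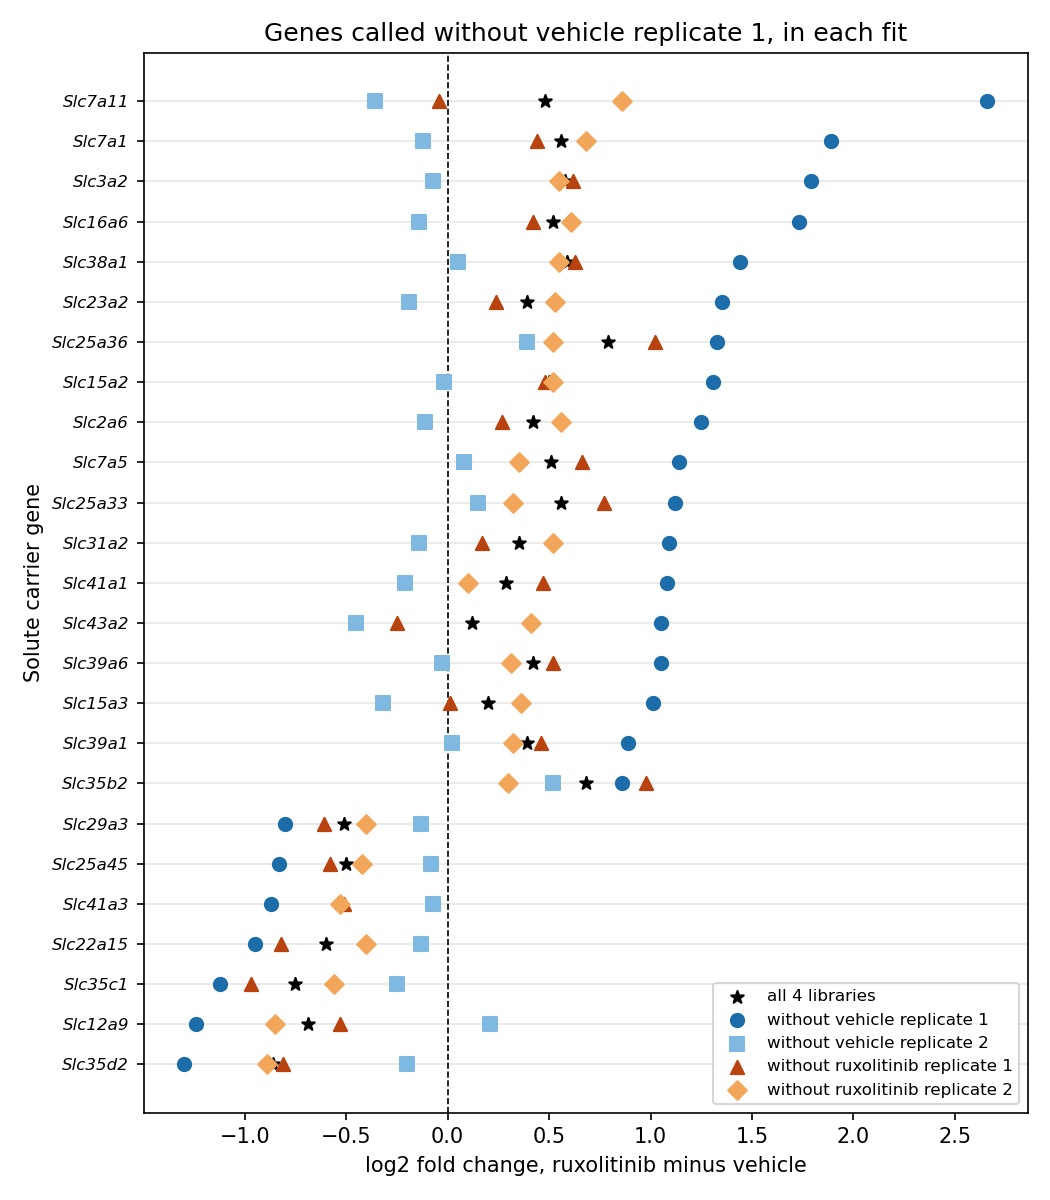
Log2 fold change, ruxolitinib over vehicle, of 25 of the 26 solute carrier genes called without vehicle 1, from the fit with all libraries (stars) and from each fit that leaves out 1 library. For Slc7a11 the value is 0.48 with all libraries, 2.66 without vehicle 1 and -0.36 without vehicle 2. For most genes the value without vehicle 1 is the largest in either direction, which follows in part from choosing them by that fit. The values without ruxolitinib 1 and without ruxolitinib 2 have no common order.

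Carrier proteins whose symbols fall outside the symbol rule likewise held no called gene. Of 32 such genes tested 0 passed the test, and 1 had an unadjusted p below 0.05, against 1.94% of all genes tested. The median log2 fold change of the 32 was 0.04. Ucp2, a mitochondrial carrier of the SLC25 family known as an uncoupling protein, was at 1130 TPM, above every Slc gene kept, with 864 and 1049 CPM under vehicle and 899.7 and 1141 CPM under ruxolitinib. Slco4a1, an organic anion transporter, was the gene with the small unadjusted p, 0.0257, with 59.95 and 32.3 CPM under vehicle, 69.2 and 104 CPM under ruxolitinib and an edgeR adjusted p of 0.975.

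At the edge of the rule, the members with the smallest lowest counts were Slc39a3 with 104 and Slc39a4 with 106 counts. The nearest genes outside were Slc35f5 with 97, Slc35e3 with 96 and Slc7a7 with 95 counts. RefSeq spans of 48 of the 116 genes overlap another gene, 14 of them a protein-coding gene, as Slc15a3 does Tmem132a and Slc16a6 does Arsg. The sources used here do not say whether counting used the strand, so reads of such pairs may be shared.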

How the data were processed

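RNA was sequenced from 2 vehicle and 2 ruxolitinib libraries, grouped by the treatment label. The submitters' processing notes name the tools Bowtie2, RSEM and DESeq2 and the build GRCm38.p6, without versions or settings. Per the file headers, the authors deposited a read count per gene, in fact an estimated count of the kind RSEM gives, since only 91.0% to 91.1% of values were whole (tolerance 1e-06). TPM and FPKM were deposited as well per the file headers, scaled by the authors to library and gene length. TPM served for levels between genes, and its value for a gene depends on the rest of the library: TPM over FPKM had a median of 1.46 in ruxolitinib 2 and 1.71 to 1.73 elsewhere. FPKM served only for that ratio and as an alternative for ranks.

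Estimated counts were rounded and tested in R 4.3.3 with edgeR 4.0.16 (filterByExpr, TMM scaling, quasi-likelihood test on group alone, Benjamini-Hochberg adjustment over 11611 genes). CPM used the TMM-scaled library sizes. The SE is the log2 fold change over the root of the F statistic. The common biological coefficient of variation was 25.7%. An exact permutation test of 2 against 2 libraries cannot go below p = 0.333 and was not used. DESeq2 1.42.0, limma-voom (limma 3.58.1), other scalings, filters and count minimums, the replicate number as a block and leaving out each library were alternatives. The procedure was tested on simulated data.

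The solute carrier genes, their roles, the other lists and the tests were chosen with earlier results of these data known. Genes named were the 10 highest by mean TPM, the 2 highest of each role, of genes whose groups are apart the 6 in each direction with the smallest unadjusted p, the genes at the count minimum, those left out by name and the top of the other lists. The text gives a selection, 3 of the 116 genes are not reported here by name though they stay in every fit and count, and other genes named were chosen after their values were seen. Promoter windows came from the RefSeq table of GRCm38.p6.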

Additional observations from a re-analysis of the deposited data

How the results depend on the processing

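For all genes, 0 were called in the comparison reported, 16 with the replicate number as a block (replicate block) and 2 to 1645 when each library was left out in turn. For the 116 solute carrier genes, 0 were called in every setting with all libraries, the block included, and 0 to 26 with a library left out, the 26 without vehicle 1. At an unadjusted p below 0.05 there were 2 as reported, 1 with limma-voom, 7 with the replicate block (4.44% of all genes then), 1 among genes with at least 200 counts, and 0 to 45 with a library left out, the 45 without vehicle 1, where 27.6% of all genes were below 0.05. The replicate numbers do not pair the libraries by any label. Replicate-2 deviations from the group means correlated at r = 0.04 across all genes and r = 0.26 across the 116, from only 2 pairs. The median log2 fold change of the 116 genes was 0.07, and -0.02 to 0.11 with a library left out, below 0 without vehicle 2. Among 24 genes with a fold change followed, 10 changed sign, each only with a library left out. Their log2 fold changes then ran from -0.32 to 1.01 for Slc15a3, -0.14 to 1.73 for Slc16a6, -0.04 to 0.29 for Slc25a5, -0.08 to 0.60 for Slc27a4, -0.11 to 1.25 for Slc2a6, -0.77 to 0.12 for Slc38a2, -0.07 to 1.79 for Slc3a2, -0.42 to 0.06 for Slc6a6, -0.12 to 1.89 for Slc7a1 and -0.36 to 2.66 for Slc7a11. By mean CPM in place of TPM, which ignores gene length, 6 of the 10 highest genes stayed among the highest 10. The cause of these differences was not tested. With 2 libraries per group, the median 95% interval of a carrier's log2 fold change reached 0.68 to each side before adjustment, and values of 0.79 and -0.86 were not called.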

Other observations

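Of the 198 solute carrier genes below the count minimum, 14 had 0 counts in all libraries, 82 passed the low-count filter, and 23 reached 100 counts in at least 1 library. Of the 82 tested, edgeR called 0, and 2 had an unadjusted p below 0.05, against 1.94% of all genes tested. The median log2 fold change of the 82 was -0.06. Of 9 genes that missed the minimum in a single library, 3 did so in vehicle 2 and 4 in ruxolitinib 2, so the choice of genes itself depends on single libraries. The highest of the 198 by level was Slc25a4, the ADP/ATP exchanger ANT1, at a mean of 9.06 TPM, against 179 TPM for its relative Slc25a5. Slc11a2, the iron importer DMT1, had 3.54 TPM, against 129 TPM for Slc11a1.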
